A study of Homo sapiens with 12 samples.

Results

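The 10 immediate early genes followed here, taken by symbol from outside the AP-1 family, were EGR2, EGR3, NR4A1, NR4A2, NR4A3, IER2, IER3, DUSP1, DUSP2 and ZFP36. Of these, 9 were measured among the 18417 genes with a named probe set, and the annotation used here names no probe set for EGR2. Side population (SP) cells, which export the DNA dye Hoechst, and main population (MP) cells, which keep it, were sorted from established cell lines of ALCL, the anaplastic large cell form of T-cell lymphoma. The arrays came from SP and MP cells of SUDHL-1 (3 SP and 3 MP arrays) and of DEL, Karpas299 and SUPM2 (1 SP and 1 MP array each), which makes 12 arrays. All cells were grown to log phase, stained with the dye and sorted into PBS, so that SP and MP cells shared the staining and the sort, and unsorted cells are not analysed here. No treatment or gene change was named for any group. The labels do not say that the SUDHL-1 replicates came from separate cultures, so p-values reflect only how these samples varied, and that variation may be technical.

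Immediate early genes are transcribed within minutes of a stimulus without new protein synthesis, mainly through ERK and calcium signalling acting on serum response factor, CREB and related factors already bound to DNA. Most of their transcripts are short-lived, and several of the products shut the response down again. In T cells they are induced by the T-cell receptor, and handling of cells during dissociation or sorting is also known to induce them, which makes the comparison of SP with MP cells a check on whether the sort left unequal traces. The members are the zinc finger factors EGR2 and EGR3, the orphan nuclear receptors NR4A1, NR4A2 and NR4A3, the early response genes IER2 and IER3, the phosphatases DUSP1 and DUSP2, which inactivate MAP kinases, and ZFP36, which destabilises AU-rich transcripts.

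The values were log2 signals, and a difference of 1 is a factor of 2 in signal. The median over all probe sets of an array was 4.83 to 5.0 for SUDHL-1, and 5.24 to 5.35 for DEL, Karpas299 and SUPM2. The ALCL and T-lineage markers GZMB (9.64 to 12.10 over the 12 arrays), PRF1 (8.54 to 11.73), IL2RA (10.91 to 12.21) and TNFRSF8, the CD30 antigen (6.80 to 10.51), gave bright signals. Of the rest of that list, PTPRC gave 8.46 to 10.45, while CD2 ran from 3.39 to 9.42 and CD4 from 3.45 to 9.66. CD3E, a chain of the T-cell receptor complex, was dim (3.11 to 4.76), and no probe set used here named ALK. Markers of B cells, myeloid cells, natural killer cells, erythroid cells and platelets, and stromal or epithelial cells had list means of 3.71 to 4.43 on SP arrays and 3.72 to 4.34 on MP arrays of SUDHL-1. On the arrays of DEL, Karpas299 and SUPM2 these list means were 4.12 to 5.04 for SP and 4.07 to 5.48 for MP. The highest was that of the myeloid markers in SUPM2, at 4.89 on the SP and 5.48 on the MP array, where CD14, a monocyte marker, differed by -1.83 (SP minus MP). Its part in the SUPM2 values below was not tested. Some markers in these list means were brighter, with CSF1R at 4.90 to 8.59, PAX5 at 4.51 to 6.78 and NCR1 at 5.19 to 6.77.

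Promoter sequence from RefSeq (GRCh38.p14) shows which of the known early response elements lie before the start site of the members on which the comparisons turned. The table held promoters for 7 of the 10 members, and it held none for EGR3, NR4A2 and IER3. Motifs were searched on both strands in the 250 bases before each start. They were the core TGACG of the cAMP response element (in 21.2% of 35116 promoters), the EGR site GCGNGGGCG (8.41%), the AP-1 site TGANTCA (6.57%), the TATA box TATAAA (10.7%) and the CArG box of serum response factor (1.16%). Capitals mark matches to these motifs. They are shown for DUSP1, IER2 and ZFP36, for which both SUPM2 arrays lay above the other 10 arrays. Also shown are NR4A3, whose signal was higher in SP cells of all 4 lines, and DUSP2, the member closest to EGR3 over the arrays.
DUSP1, chr5:172771196-172771445, minus strand: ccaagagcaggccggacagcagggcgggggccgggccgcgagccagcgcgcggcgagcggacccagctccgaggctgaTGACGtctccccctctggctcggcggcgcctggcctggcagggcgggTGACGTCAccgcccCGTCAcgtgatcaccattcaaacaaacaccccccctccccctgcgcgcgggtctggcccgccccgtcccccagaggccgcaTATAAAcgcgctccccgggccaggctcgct
IER2, chr19:13150161-13150410, plus strand: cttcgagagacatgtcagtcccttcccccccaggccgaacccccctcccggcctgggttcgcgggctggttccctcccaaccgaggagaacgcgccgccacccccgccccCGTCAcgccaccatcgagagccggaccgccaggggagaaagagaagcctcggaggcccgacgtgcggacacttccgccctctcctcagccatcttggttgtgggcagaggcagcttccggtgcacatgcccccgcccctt
ZFP36, chr19:39406597-39406846, plus strand: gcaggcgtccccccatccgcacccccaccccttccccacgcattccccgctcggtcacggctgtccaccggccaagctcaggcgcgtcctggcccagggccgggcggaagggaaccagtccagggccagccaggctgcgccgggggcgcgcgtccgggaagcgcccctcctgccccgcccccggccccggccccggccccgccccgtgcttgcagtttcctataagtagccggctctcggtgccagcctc
NR4A3, chr9:99821635-99821884, plus strand: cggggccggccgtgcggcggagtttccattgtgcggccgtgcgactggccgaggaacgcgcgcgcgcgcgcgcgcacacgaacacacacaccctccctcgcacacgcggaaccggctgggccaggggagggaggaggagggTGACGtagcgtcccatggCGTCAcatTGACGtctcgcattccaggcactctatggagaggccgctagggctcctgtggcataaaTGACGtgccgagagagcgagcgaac
DUSP2, chr2:96145441-96145690, minus strand: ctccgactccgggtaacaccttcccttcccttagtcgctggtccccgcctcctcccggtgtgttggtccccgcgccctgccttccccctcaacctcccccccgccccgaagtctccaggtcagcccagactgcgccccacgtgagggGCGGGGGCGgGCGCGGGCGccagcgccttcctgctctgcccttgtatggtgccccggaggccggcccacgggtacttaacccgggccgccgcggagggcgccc

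DUSP1 held 4 matches to the core TGACG, of which 2 overlap on opposite strands in the full element TGACGTCA at -125 to -118, an element found in 1.65% of promoters, and a TATA box at -30 to -25. NR4A3 also held 4 such matches, between -109 and -21, and IER2 held 1, at -140 to -136. ZFP36 held none of the 5 motifs. DUSP2 held 2 EGR sites, at -103 to -95 and at -93 to -85, and the first overlaps 2 copies of the GC box GGGCGG, a motif that 42.6% of promoters hold and that is not in capitals on its own. No window of these 5 genes held a CArG box or an AP-1 site. Windows of EGR2 and NR4A1 were searched too but are not shown. Of the 10 windows of members, 1 held a CArG box, a window of EGR2 at -71 to -62, and 0 held an AP-1 site. That window also held 2 matches to the core TGACG, and the windows of NR4A1 held none of the 5 motifs. A match describes the letters in the window and is not evidence of binding.

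In SUDHL-1, no measured member passed the test of SP against MP cells. The differences (SP minus MP) ran from -0.57 to 0.36 on the log2 scale with a median of -0.013, and 4 of 9 were above 0, against a median of -0.00024 and 49.9% above 0 over all genes. Limma with Benjamini-Hochberg adjustment over 18417 genes called 0 members and 0 genes in all (0%). At an unadjusted p under 0.05 it called 0 of 9 members and 577 genes (3.13%). The SP and MP arrays overlapped for all 9 members, while they did not overlap for 7.16% of all genes (3.74% with SP above and 3.42% with SP below). A lower signal from fewer cells expressing a gene and one from less RNA per cell cannot be told apart in these bulk samples.

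**Figure D1:**
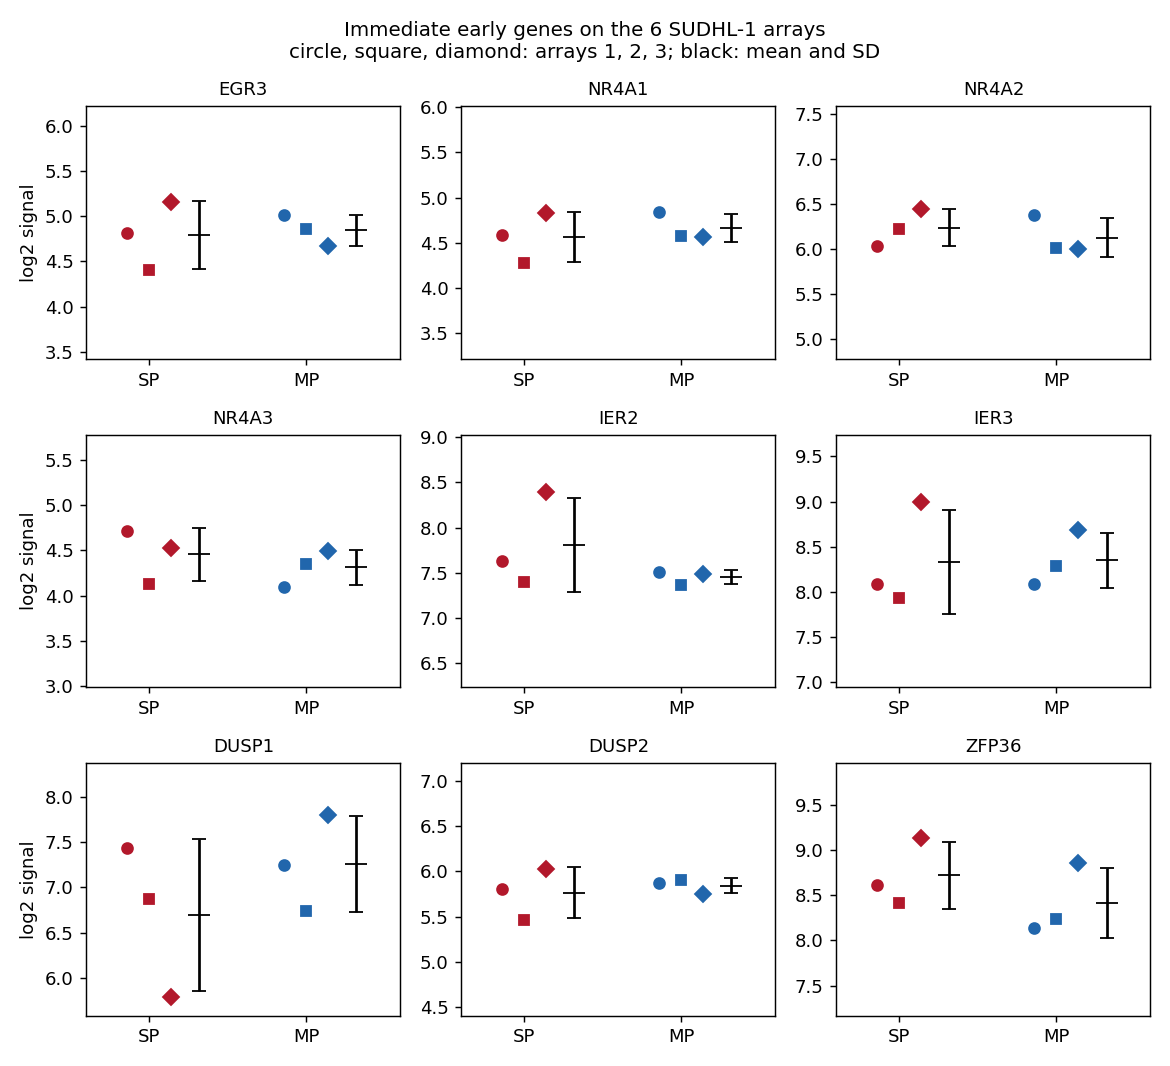
Log2 signal (y axis, spanning the same range in each panel) of the 9 measured members on the 3 SP and 3 MP arrays of SUDHL-1, with circle, square and diamond for arrays 1, 2 and 3 and a black bar for the mean and SD of each population. The populations overlap in every panel, and SP array 3 stands highest for IER2 (8.39) and lowest for DUSP1 (5.78).

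EGR3, which acts downstream of T-cell receptor signalling, stood at 4.81, 4.40 and 5.16 on the SP arrays, against 5.01, 4.86 and 4.67 on the MP arrays of SUDHL-1. All 3 MP values fell inside the range of the SP values. The difference was -0.052 ± 0.22 (SE, limma adjusted p = 1.0), with a 95% interval of -0.56 to 0.46.

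The nuclear receptors are transcription factors that act without a known hormone and are early targets of T-cell receptor signalling. NR4A1 stood at 4.58, 4.27 and 4.83 on SP arrays, against 4.84, 4.57 and 4.57 on MP arrays. NR4A2 stood at 6.04, 6.23 and 6.45 on SP arrays, against 6.37, 6.01 and 6.00 on MP arrays. NR4A3 stood at 4.71, 4.13 and 4.52 on SP arrays, against 4.10, 4.35 and 4.49 on MP arrays. The spread within each population exceeded the distance between the population means for all 3 receptors. Their differences were -0.099 ± 0.19, 0.11 ± 0.18 and 0.14 ± 0.20 (SE, limma adjusted p = 1.0 for each). Of the 95% intervals, that of NR4A1 reached from -0.53 to 0.34 and that of NR4A3 from -0.32 to 0.61.

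IER2, a nuclear protein gene induced by growth factors, stood at 7.63, 7.40 and 8.39 on SP arrays, against 7.51, 7.36 and 7.48 on MP arrays. SP array 3 stood alone above the other 5 arrays, which lay close together. The difference was 0.36 ± 0.26 (SE, limma adjusted p = 1.0), and with 1 array left out it ran from 0.063 (without SP array 3) to 0.56 (without SP array 2). IER3, which modulates cell death and ERK signalling, stood at 8.09, 7.93 and 8.99 on SP arrays, against 8.08, 8.28 and 8.68 on MP arrays. In both populations the array numbered 3 was the highest. The difference was -0.013 ± 0.30 (SE, limma adjusted p = 1.0). Of the 3 probe sets of IER3, 2 had identical values on all 12 arrays and gave -0.045, so they are not separate measurements. The brightest, used here, gave -0.013 and correlated with them at over 0.996.

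DUSP1, a nuclear phosphatase of p38, JNK and ERK kinases, stood at 7.44, 6.87 and 5.78 on SP arrays, against 7.25, 6.74 and 7.80 on MP arrays. The lowest and the highest values both came from arrays numbered 3. The difference was -0.57 ± 0.44 (SE, limma adjusted p = 1.0) with a 95% interval of -1.60 to 0.46. With 1 array left out it ran from -0.94 (without SP array 1) to -0.11 (without SP array 3), and with both arrays numbered 3 left out it was 0.16. DUSP2, a phosphatase abundant in activated lymphocytes, stood at 5.80, 5.46 and 6.03 on SP arrays, against 5.87, 5.91 and 5.75 on MP arrays. The MP values lay inside the SP range. The difference was -0.075 ± 0.18 (SE, limma adjusted p = 1.0).

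ZFP36 stood at 8.62, 8.42 and 9.13 on SP arrays, against 8.14, 8.24 and 8.86 on MP arrays of SUDHL-1. MP array 3 lay above SP arrays 1 and 2, so that the populations overlapped. The difference was 0.31 ± 0.26 (SE, limma adjusted p = 1.0), and the means were 8.72 ± 0.37 for SP, against 8.41 ± 0.39 for MP (SD, n = 3 each). Without 1 array it ran from 0.11 to 0.53.

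For each of the 9 members, the range over the 3 SP arrays (0.41 to 1.65) exceeded the size of the SP minus MP difference. SP array 3 held the highest of the 6 SUDHL-1 values for EGR3, NR4A2, IER2, IER3, DUSP2 and ZFP36, 6 of 9 members, while 26.8% of all genes had their highest value on that array. SP array 2 held the lowest value for EGR3, NR4A1, IER3 and DUSP2, 4 of 9 members, against 21.6% of all genes. Relative to the mean of the 6 arrays, the median member stood at 0.26 on SP array 3 and at -0.25 on SP array 2, and the median of all genes at 0.046 and -0.032. DUSP1 went the other way, at -1.20 on SP array 3 and 0.82 on MP array 3. Of the 6 SUDHL-1 arrays, SP array 3 also had the highest median over all probe sets (4.9999) and SP array 2 the lowest (4.8337). The part of this array-wide shift in the order of the arrays for the members was not tested.

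**Figure D2:**
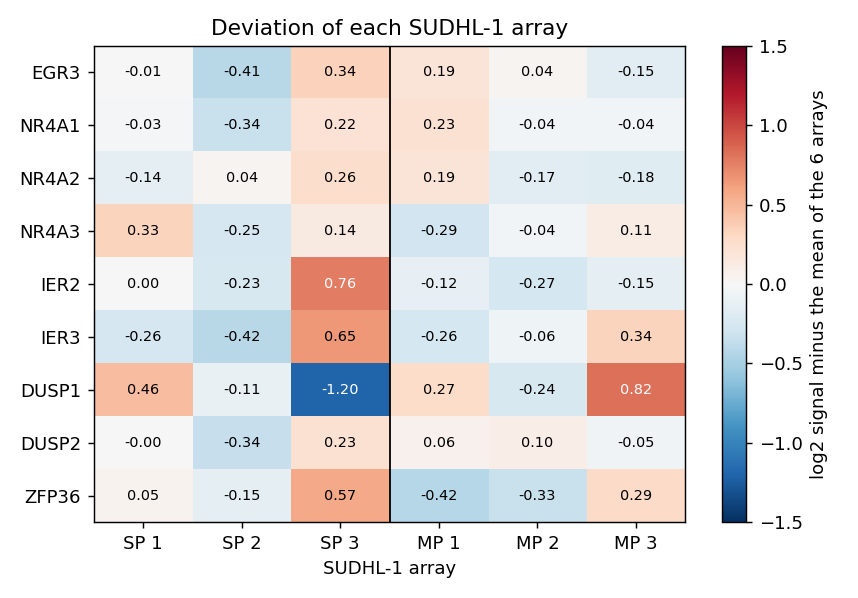
Log2 signal of each member (rows) on each SUDHL-1 array (columns) minus the mean of the 6 arrays, in colour and as a number. SP array 3 is above the mean for 8 of 9 members and SP array 2 above it for 1 of 9, while DUSP1 is lowest on SP array 3 at -1.20.

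AP-1 genes, which encode the FOS and JUN partners of the same early response, were often highest on the same array. SP array 3 held the highest value for 8 of 11 AP-1 genes and 14 of 35 other immediate early genes. The counts were 6 of 23 (26.1%) for partners and paralogs, 3 of 10 (30%) for genes of T-cell receptor activation and 2 of 12 (16.7%) for heat shock genes, which encode chaperones. Of all genes, 26.8% were highest on SP array 3, so that the counts for partners and for T-cell receptor activation are near that share. The difference between these lists was not tested. FOS stood at 6.65, 5.60 and 8.43 on SP arrays, against 6.26, 5.94 and 7.24 on MP arrays. EGR1, the paralog of EGR2 and EGR3, stood at 9.52, 8.84 and 10.30 on SP arrays, against 9.32, 8.24 and 10.37 on MP arrays. Both genes were highest on the arrays numbered 3 within each population. FOS and EGR1 were singled out after their values were seen. Whether RNA quality, time in the sort or amplification differed for the arrays numbered 3 was not tested.

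Across the 6 SUDHL-1 arrays, EGR3 and DUSP2 were the closest pair of members, with Pearson r = 0.96 (r = 0.93 over all 12 arrays after each line's mean was subtracted). EGR3 and NR4A1 followed at 0.95 over the 6 arrays, and ZFP36 correlated with IER3 at 0.83 and with IER2 at 0.77. EGR3 and NR4A1 were dim, at percentiles of 35.4 to 45.9 and 33.1 to 41.9 among all genes of a SUDHL-1 array. The part of dim signal in their correlations was not tested. DUSP1 ran against 7 of the 8 other members, with values down to -0.72 for IER2. Of 36 pairs, 28 had an r above 0 over the 6 arrays, and 25 over the 12 arrays with line means subtracted. The share of such pairs over all genes was not computed. These values describe 6 or 12 arrays that may share a normalization, and they carry no test. The part in them of the array medians, highest on SP array 3 and lowest on SP array 2 in SUDHL-1, was not tested either. The 5 genes outside the list whose pattern over the 12 arrays, with line means subtracted, was most like the mean pattern of the members were BSX, UNCX, PWWP2A, SNX21 and PEX11G, at r = 0.92 to 0.94 among 9203 genes of at least median signal.

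Over the 4 lines, no member passed the test of SP against MP cells. Each line gave 1 difference, the SUDHL-1 arrays being averaged first. Limma on these 4 differences called 0 of 9 members and 0 of 18417 genes (0%) at an adjusted p under 0.05, and at an unadjusted p under 0.05 it called 0 members and 904 genes (4.91%). The members' median was 0.014, with 5 of 9 above 0, against a median of 0.021 and 55.6% above 0 over all genes. Within the lines, 4 of 9 members were higher in SP cells of SUDHL-1, 6 in those of DEL, and 4 each in those of Karpas299 and SUPM2, against 49.9%, 52.7%, 49.2% and 57.8% of all genes. The member medians were -0.013, 0.30, -0.012 and -0.10 in that order, against -0.00024, 0.018, -0.0059 and 0.074 over all genes.

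**Figure D3:**
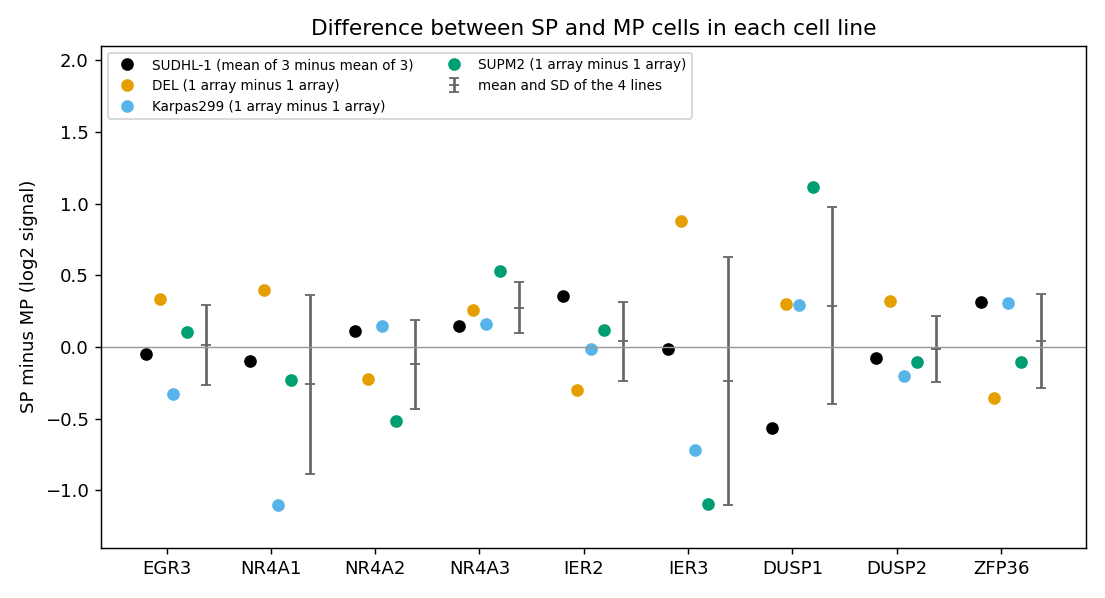
SP minus MP difference in log2 signal (y axis) of each member (x axis) in SUDHL-1, DEL, Karpas299 and SUPM2, with a grey bar for the mean and SD of the 4 lines. NR4A3 lies above 0 in each of the 4 lines (0.14 to 0.53), while IER3 runs from -1.09 in SUPM2 to 0.88 in DEL.

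NR4A3 was the only member with 1 sign in all 4 lines. It gave 5.65 on the SP and 5.39 on the MP array of DEL, 5.23 and 5.07 on those of Karpas299, and 5.94 and 5.41 on those of SUPM2. SP was the higher array of each pair. NR4A3 was dim, at percentiles of 28.3 to 52.9 among all genes of an array. SP exceeded MP by 0.14 in SUDHL-1, by 0.26 in DEL, by 0.16 in Karpas299 and by 0.53 in SUPM2, and the mean was 0.27 ± 0.18 (SD, n = 4 lines, limma adjusted p = 0.918). Of all genes, 13.7% had 1 sign in all 4 lines (8.09% higher and 5.65% lower in SP cells), so that 1 of 9 members is near that share. Leaving out any 1 line or SUDHL-1 array kept the average of NR4A3 between 0.19 and 0.32. With all 4 differences above 0, leaving out a line could not turn its sign.

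NR4A1 and NR4A2 lay on the other side on average. NR4A1 gave 5.60 on the SP and 5.21 on the MP array of DEL, 5.26 and 6.37 on those of Karpas299, and 5.35 and 5.59 on those of SUPM2. The Karpas299 MP array was the highest of the 12, and the difference there was -1.11. The mean over lines was -0.26 ± 0.62 (SD, n = 4 lines, limma adjusted p = 0.92), and it ran from -0.48 without DEL to 0.021 without Karpas299. NR4A2 gave 6.23 on the SP and 6.46 on the MP array of DEL, 6.18 and 6.03 on those of Karpas299, and 5.46 and 5.98 on those of SUPM2. SP cells were lower in DEL and SUPM2 and higher in the other lines, with a mean of -0.12 ± 0.31 (SD, n = 4 lines, limma adjusted p = 0.939).

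IER3 and DUSP1 had the widest spread between lines. IER3 gave 11.24 on the SP and 10.36 on the MP array of DEL, 9.31 and 10.03 on those of Karpas299, and 9.26 and 10.35 on those of SUPM2. SP was higher by 0.88 in DEL and lower in Karpas299 and SUPM2, at -0.72 and -1.09, and the mean was -0.24 ± 0.87 (SD, n = 4 lines, limma adjusted p = 0.946). DUSP1 gave 8.0 on the SP and 7.70 on the MP array of DEL, 8.13 and 7.84 on those of Karpas299, and 9.77 and 8.65 on those of SUPM2. SP was higher in these 3 lines, by 0.30, 0.29 and 1.12, and lower in SUDHL-1. The mean was 0.29 ± 0.69 (SD, n = 4 lines, limma adjusted p = 0.92), and it ran from 0.0095 without SUPM2 to 0.57 without SUDHL-1.

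A difference over 2-fold between the SP and the MP array was seen for NR4A1 in Karpas299 and for IER3 and DUSP1 in SUPM2, which left 0 of 9 members in SUDHL-1 and DEL, 1 of 9 in Karpas299 and 2 of 9 in SUPM2. The share of all genes past 2-fold was 0.755% for SUDHL-1, 2.44% for DEL, 3.2% for Karpas299 and 6.59% for SUPM2. DEL, Karpas299 and SUPM2 have 1 array for each population, so these single differences have no replicate check.

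EGR3, IER2, DUSP2 and ZFP36 stayed closer to 0, with line means of 0.014 ± 0.28, 0.040 ± 0.27, -0.014 ± 0.23 and 0.040 ± 0.33 (SD, n = 4 lines). EGR3 gave 5.01 on the SP and 4.67 on the MP array of DEL, 4.71 and 5.04 on those of Karpas299, and 5.01 and 4.91 on those of SUPM2. DUSP2 gave 6.32 on the SP and 6.00 on the MP array of DEL, 6.29 and 6.49 on those of Karpas299, and 6.40 and 6.50 on those of SUPM2. Both genes were higher in SP cells of DEL and lower in those of Karpas299 and SUDHL-1. Their limma adjusted p-values over the 4 lines were 0.993 and 0.991, and those of IER2 and ZFP36 were 0.984 and 0.985. The sign of the average turned for 7 of 9 members when some line was left out, the exceptions being NR4A3 and DUSP1. That of NR4A3 could not turn, as its differences in the 4 lines had 1 sign.

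The SUDHL-1 difference was set against that of the other 3 lines by an interaction term in a fit of the 12 arrays that also held a term for each line. Limma called 0 of 9 members and 0 genes in all (0%), with 661 genes (3.59%) and 0 members at an unadjusted p under 0.05. Of the interactions, 5 of 9 members had one above 0, against 45% of all genes. DUSP1 had the widest interaction, at -1.14 ± 0.57 (SE, limma adjusted p = 1.0), from a difference of -0.57 in SUDHL-1, against 0.29 to 1.12 elsewhere. Its 95% interval was -2.42 to 0.15, and with 1 SUDHL-1 array left out the value ran from -1.51 (without SP array 1) to -0.68 (without SP array 3).

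Between lines, 1 of the 9 members passed, and the levels of several were highest in SUPM2. DEL, Karpas299 and SUPM2 were compared in a limma fit of their 6 arrays with population as a term, in which the only replicates of a line are its SP and its MP array. ZFP36, whose promoter window held none of the 5 motifs, stood at 9.04 and 9.39 on the SP and MP arrays of DEL, at 10.25 and 9.95 in Karpas299, and at 10.89 and 10.99 in SUPM2. The 3 lines did not overlap, with SUPM2 highest and DEL lowest. DEL minus SUPM2 was -1.73 ± 0.23 (SE, limma adjusted p = 0.0235), the one call among the 9 members, where 4.72% of all genes were called, 3.25% higher and 1.47% lower. Its adjusted p was 0.0538 to 0.135 when either array of DEL or SUPM2 was left out, and the neighbours in the order did not pass, with DEL minus Karpas299 at -0.89 ± 0.23 (adjusted p = 0.136) and Karpas299 minus SUPM2 at -0.84 ± 0.23 (adjusted p = 0.102).

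IER2 and DUSP1 had the same line on top. IER2 stood at 7.49 and 7.79 on the SP and MP arrays of DEL, at 7.83 and 7.85 in Karpas299, and at 8.73 and 8.61 in SUPM2. DEL minus SUPM2 was -1.04 ± 0.20 for IER2 and -1.36 ± 0.27 for DUSP1 (SE, limma adjusted p = 0.0543 and 0.0585). Karpas299 minus SUPM2 was -0.83 ± 0.20 and -1.23 ± 0.27 (SE, limma adjusted p = 0.0749 and 0.062), where 6.81% of all genes were called, 4.29% higher and 2.52% lower. None of these 4 differences passed, and all 4 did after the columns were quantile normalized again, with adjusted p = 0.0352, 0.0397, 0.0424 and 0.0398. Both SUPM2 arrays lay above the other 10 arrays for ZFP36, IER2 and DUSP1, 3 of 9 members, against 12.5% of all genes. Against the 4 arrays of DEL and Karpas299 alone, both SUPM2 arrays were higher for 3 of 9 members and 17.3% of all genes. By line mean, SUPM2 was also the highest line for EGR3, NR4A3 and DUSP2.

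**Figure D4:**
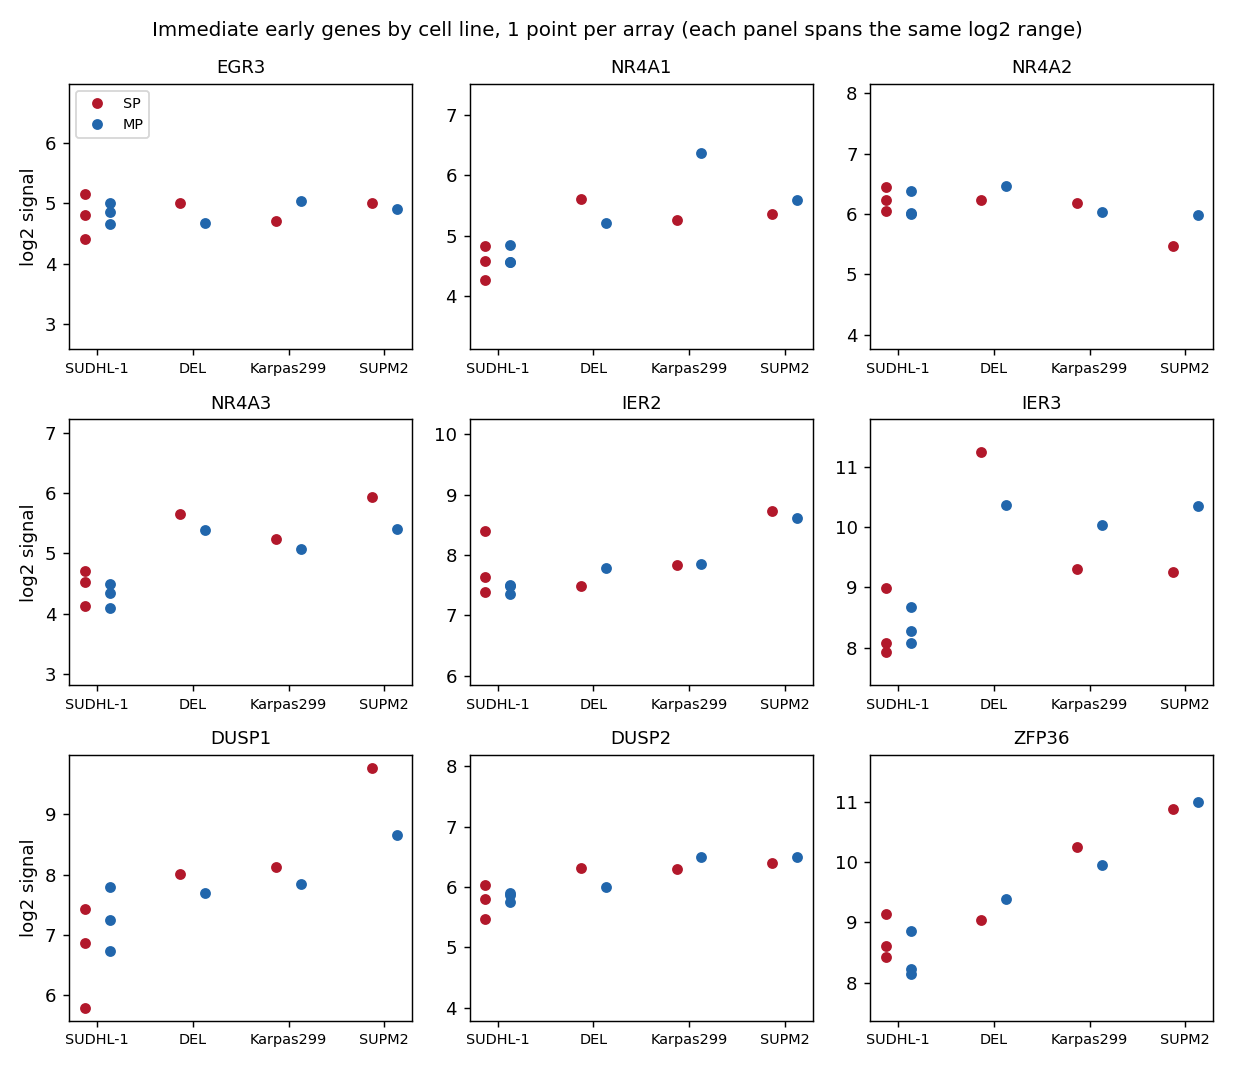
Log2 signal (y axis, the same span in each panel) of each member by cell line (x axis), 1 point per array, with SP in red and MP in blue. Both SUPM2 arrays are the highest for IER2, DUSP1 and ZFP36, and DEL is highest for IER3 (11.24 in SP and 10.36 in MP cells).

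IER3 had another order, with DEL on top at a line mean of 10.80, SUPM2 at 9.81 and Karpas299 at 9.67. DEL minus Karpas299 was 1.13 ± 0.48 (SE, limma adjusted p = 0.359) and DEL minus SUPM2 was 0.99 ± 0.48 (adjusted p = 0.328), and neither passed. With 1 array left out, these values ran from 0.24 to 2.02 and from 0.10 to 1.89. DEL minus Karpas299 called 0 of 9 members, with 2.41% of all genes called, 1.35% higher and 1.06% lower. NR4A2 was lowest in SUPM2, with DEL minus SUPM2 at 0.63 ± 0.23 (adjusted p = 0.208). NR4A3 was lowest in Karpas299 of these 3 lines, with Karpas299 minus SUPM2 at -0.53 ± 0.19 (adjusted p = 0.197). NR4A1, EGR3 and DUSP2 had adjusted p-values of 0.501 to 0.977 in the 3 contrasts. At an unadjusted p under 0.05, DEL minus Karpas299 called 1 of 9 members (15.6% of all genes), DEL minus SUPM2 called 4 (20.5%) and Karpas299 minus SUPM2 called 4 (22%). The members above 0 were 3, 2 and 2 of 9 in these contrasts, against 44.5%, 40.7% and 44.1% of all genes.

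In SUDHL-1 all 6 arrays lay below the 6 arrays of the other lines for NR4A1, NR4A3 and IER3, as they did for 29.1% of all genes. The line means of SUDHL-1 were 4.61 for NR4A1, 4.38 for NR4A3 and 8.34 for IER3. By rank among all genes of an array, IER3 held percentiles of 81.3 to 91.6 on SUDHL-1 arrays, against 93.4 to 99.1 elsewhere. ZFP36 held 84.3 to 92.4 on SUDHL-1 arrays, against 92.1 to 98.9 elsewhere, so that its ranks overlapped slightly. The ranks of NR4A1 (33.1 to 41.9, against 40.2 to 60.4 elsewhere) and NR4A3 (28.3 to 38.6, against 37.3 to 52.9) overlapped. Those of IER2, DUSP1 and DUSP2 overlapped too. NR4A2 reached higher ranks on SUDHL-1 arrays (59.9 to 67.7, against 43.4 to 60.45), as did EGR3 (35.4 to 45.9, against 30.8 to 36.75). The sources used here do not say whether the SUDHL-1 arrays were normalized with the other 6, so line and normalization cannot be told apart and no test was made.

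Related genes of the same response gave no call between SP and MP cells either. In SUDHL-1, limma called 0 of 11 AP-1 genes (median difference -0.049, 5 above 0), 0 of 35 other immediate early genes (median 0.033, 22 above 0), 0 of 23 partners and paralogs (median 0.026, 13 above 0) and 0 of 12 heat shock genes (median -0.0074, 6 above 0), against a median of -0.00024 over all genes. Over the 4 lines the 4 lists again had 0 calls, with medians of -0.020, 0.083, 0.048 and -0.080, against 0.021 over all genes. Among AP-1 genes FOSL2 and MAFF differed by -0.28 and 0.25 in SUDHL-1, and among partners MAPK3, the ERK1 kinase, and SPRY4, an inhibitor of ERK signalling, by 0.22 and 0.33 (limma adjusted p = 1.0 for each). FOS had both signs, with SP minus MP at 0.41 in SUDHL-1 and 0.98 in SUPM2, but -0.54 in DEL and -1.48 in Karpas299 (limma adjusted p = 0.977 over the lines).

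Between lines, the related genes were called in both directions. Of the 11 AP-1 genes, JUN and ATF3 were lower in DEL than in SUPM2, at -1.91 ± 0.28 and -1.61 ± 0.21 (SE, limma adjusted p = 0.0299 and 0.0235), and ATF3 was lower in Karpas299 than in SUPM2, at -1.69 ± 0.21 (adjusted p = 0.0172). Of the 35 other immediate early genes, 5 were lower and 4 higher in Karpas299 than in SUPM2, EGR1 among the lower at -1.87 ± 0.29 (adjusted p = 0.0277). In Karpas299, EGR1 gave 8.30 on the SP and 8.55 on the MP array, against 10.41 and 10.18 in SUPM2. SPRY2, a feedback inhibitor of ERK signalling, stood at 3.21 to 3.53 in DEL and Karpas299, against 7.34 and 6.17 on the SP and MP arrays of SUPM2. Over all genes, 4.72% were called for DEL minus SUPM2 and 6.81% for Karpas299 minus SUPM2, and leaving out 1 array cut the number called to as few as 120 of 869 and 39 of 1255. JUN, ATF3, EGR1 and SPRY2 are named here after their values were seen.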

How the data were processed

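The deposited values are log2 signals per probe set. The authors used RMA, of no stated version, per the submitters' processing notes. Per the labels' protocols, sorted cells gave RNA that was amplified with a NuGEN Ovation Pico kit, biotinylated and put on Affymetrix arrays. All 12 columns were used as deposited, with 0 left out. Arrays have no read depth, so their number limits the precision.

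Of 33297 probe sets, 19460 had 1 gene symbol in the platform annotation, 1754 had several and 12083 had none. Only the first named a gene, and 19429 matched RefSeq (GRCh38.p14) by Entrez identifier. The brightest probe set stood for a gene with several (769 genes), which left 18417 genes. Of IER3's 3 probe sets, 1 stood for it.

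Fits used limma 3.58.1 (lmFit and eBayes) in R 4.3.3 over all genes, two-sided, with Benjamini-Hochberg adjustment and a threshold of 0.05: SP minus MP in SUDHL-1 (6 arrays), 1 difference per line against 0 (4 lines), the interaction of population with SUDHL-1 (12 arrays), and contrasts of DEL, Karpas299 and SUPM2 (6 arrays, population as a term). Each fit was tested on simulated data, where the SP against MP fits missed most of the genes changed 2-fold and the line contrasts called none of the changed genes at the sizes simulated. The members and gene lists were chosen with earlier results of these data known. Genes named with values were all members, up to 4 genes of smallest p in SUDHL-1 from each related list, and the 5 genes most like the members' pattern, with exceptions stated in the text. Same-numbered SP and MP arrays of SUDHL-1 correlated at -0.0037, -0.077 and -0.13 in their deviations from the group means. These values cannot decide whether the numbers paired the samples, which the labels do not say. Alternatives changed the filter on dim genes, the normalization, the centring, the probe sets, the variance model, the replicate block and the arrays or lines used. No coordinates of the arrays were used. Promoter windows came from RefSeq.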

Additional observations from a re-analysis of the deposited data

How the results depend on the processing

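Of 684 values that the alternatives gave for the 9 members, 626 kept their direction and their side of the threshold, 46 changed sign, 4 lost a call and 8 gained one. No member and no gene was called for SP against MP under any alternative (limma, 447 to 1006 genes at an unadjusted p under 0.05 in SUDHL-1, 686 to 965 over the lines and 480 to 831 for the interaction). With the replicate number as a block, whose pairing of samples the labels do not state, 0 genes were called in SUDHL-1. Some alternatives could not change a difference, so part of the kept directions was fixed in advance. In SUDHL-1 the DUSP1 difference stayed at -0.57 with the dim filter, averaged probe sets, robust variance, replicate block and 12-array block. With 1 array left out, the SUDHL-1 differences ran from -0.24 to 0.14 for EGR3, -0.23 to 0.045 for NR4A1, -0.34 to 0.19 for IER3 and -0.21 to 0.076 for DUSP2. Without both arrays numbered 3, an alternative chosen after seeing the data, DUSP1 stood at 0.16 and NR4A2 at -0.059. Over the lines, with 1 array or line left out, the averages ran from -0.092 to 0.13 for EGR3, -0.48 to 0.021 for NR4A1, -0.21 to 0.010 for NR4A2, -0.066 to 0.15 for IER2, -0.61 to 0.049 for IER3, -0.13 to 0.047 for DUSP2 and -0.050 to 0.17 for ZFP36, and EGR3 stood at -0.0018 after quantile normalization. The interaction ran from -0.27 to 0.11 for EGR3, -0.032 to 0.50 for IER3 and -0.21 to 0.070 for DUSP2.

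Between lines, leaving out 1 of the 6 arrays left 0 to 735 genes called for DEL minus Karpas299 (444 with all arrays), 120 to 673 for DEL minus SUPM2 (869) and 39 to 1130 for Karpas299 minus SUPM2 (1255), with 1 residual degree of freedom left. DEL minus Karpas299 ran from -0.30 to 0.24 for EGR3, -1.0 to 0.19 for NR4A1, -0.020 to 0.50 for NR4A2, -0.34 to 0.074 for DUSP1 and -0.47 to 0.0065 for DUSP2. DEL minus SUPM2 ran from -0.34 to 0.10 for EGR3, -0.59 to 0.47 for NR4A1 and -0.32 to 0.0044 for NR4A3, and Karpas299 minus SUPM2 from -0.36 to 0.18 for EGR3, -0.25 to 0.94 for NR4A1, -0.72 to 0.45 for IER3 and -0.21 to 0.096 for DUSP2. The cause of these changes was not tested. EGR3, NR4A1 and NR4A3 lay at the 28.3 to 60.4 percentiles of an array.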

Other observations

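Among 35 other immediate early genes, KLF10 and KLF6, zinc finger factors of the Krüppel-like family that respond early to TGF-beta and growth factors, had the smallest p in SUDHL-1. KLF10 stood at 8.31, 8.35 and 8.09 on SP arrays, against 7.74, 7.19 and 7.57 on MP arrays. KLF6 stood at 6.55, 6.44 and 6.56 on SP arrays, against 6.14, 5.49 and 5.92 on MP arrays. For both genes every SP array lay above every MP array, as for 3.74% of all genes, and SP array 3 did not stand out. Both were picked by p on these 6 arrays, so this separation is not independent of that choice. The differences were 0.75 ± 0.18 and 0.67 ± 0.19 (SE, limma adjusted p = 1.0 for each), so neither passed. In DEL, Karpas299 and SUPM2 the differences were 0.37, 0.23 and 0.38 for KLF10, and 0.18, 0.83 and 0.55 for KLF6. SP was thus higher in 4 of 4 lines for both, with averages of 0.43 ± 0.13 and 0.56 ± 0.14 (SE, limma adjusted p = 0.918 for each), and 8.09% of all genes were higher in SP cells of every line. The averages include the SUDHL-1 differences by which KLF10 and KLF6 were picked. Other genes of the list ran the opposite way. RGS2, a regulator of G-protein signalling, had the third smallest p in SUDHL-1, at -0.69 ± 0.28, with -0.041, -1.45 and 0.54 in DEL, Karpas299 and SUPM2. PLK2, a polo-like kinase gene named after its values were seen, was lower in SP cells of all 4 lines, with an average of -0.69 ± 0.19 (SE, limma adjusted p = 0.918). HSPA1L, a heat shock protein gene with a testis-enriched product, had the largest SUDHL-1 difference of its list, with 5.80, 5.82 and 7.60 on SP arrays, against 5.83, 4.08 and 6.50 on MP arrays (limma adjusted p = 1.0), and was highest on the arrays numbered 3 in both populations.

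EGR1 spread over 8.24 to 10.37 within the 6 SUDHL-1 arrays, a wider range than its SP minus MP difference in any line (-0.25 to 0.80). On SP array 3, DUSP1 was the lowest of the 6 arrays at 5.78 and EGR1 the second highest at 10.30. On MP array 3 both were the highest of the 6, at 7.80 and 10.37. CDKN1A, a p53 target counted here with the immediate early genes and named after its values were seen, gave 10.23 on the SP and 10.45 on the MP array of SUPM2, against 6.53 to 8.17 on the other 10 arrays.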
